A study of Mus musculus with 9 samples.

Results

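The BCL2 family sets the threshold at which the mitochondrial outer membrane becomes permeable and a cell commits to apoptosis. Survival proteins such as BCL2, BCL-XL and MCL1 hold the effectors BAX and BAK in check. BH3-only proteins, among them BIM, PUMA, NOXA, BID and BAD, relay damage and stress signals by binding the survival proteins, and some of them also activate the effectors directly. The genes examined were Bcl2, Bcl2l1 and Mcl1 of the survival class, Bax and Bak1 of the effector class, and Bcl2l11, Bbc3, Pmaip1, Bid and Bad of the BH3-only class. These 10 genes were taken by name from a count table of 49315 mouse genes, all 10 were found, and all 10 passed the filter on low counts in every comparison.

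The data were bulk RNA-seq of 9 libraries, 3 from each of 3 populations sorted after SB28 cells and astrocytes had shared a dish for 2 d, without other treatment. The astrocytes were primary neonatal cells of mito::mKate2 mice on a C57BL6 background, in which a ubiquitous promoter drives a red fluorophore addressed to mitochondria. SB28 is a single GFP-expressing mouse glioblastoma line of C57BL6 origin, derived from a glioma induced with an oncogenic NRAS and a short hairpin against p53. It was sorted into cells that carried astrocyte mitochondria (mKate2+) and cells that did not (mKate2-). The study's methods describe the 3 replicates as distinct co-cultures. Library totals ran from 24454561 to 39287841 counts. Levels are given as CPM, counts scaled to a common library total, in the order of replicates 1, 2 and 3. Comparisons between genes use CPM per kilobase of exon.

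The populations were checked against cell type markers. Slc1a3, which encodes an astrocyte glutamate transporter, stood at 173, 177 and 236 CPM in the astrocytes and between 0.560 and 2.38 CPM in the 6 SB28 libraries. The summed CPM of 9 astrocyte markers was 832, 777 and 1351 in the astrocytes and 89.7 to 127 in SB28 cells, where Sox9 made up most of it. Astrocyte replicate 3 stood apart from the other 2, with Aldoc at 362 CPM against 55.6 and 33.8 and with Aqp4, a water channel of mature astrocytes, at 59.7 CPM against 5.64 and 6.82. The astrocytes also held Olig2, an oligodendrocyte lineage factor, at 155 to 268 CPM, levels that SB28 cells did not reach (0.585 to 2.95 CPM). The 9 microglia and macrophage markers summed to 17.5, 22.0 and 7.66 CPM in astrocytes and to 1.68 to 3.67 CPM in SB28 cells, and most of this was Cd68, while Cx3cr1 did not exceed 0.041 CPM and P2ry12 did not exceed 2.54 CPM. The 4 fibroblast markers summed to 1349, 1434 and 992 CPM in astrocytes and to 491 to 754 CPM in SB28 cells, with Col1a2 the most abundant in both cell types and with Dcn and Lum at 2.45 CPM or less in every library. What part other cells in the astrocyte sort had in the differences below was not tested. In bulk samples, fewer cells of a type cannot be told apart from less RNA per cell.

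Against astrocytes, SB28 cells had less mRNA of most members, on both sides of the family. Of the 10 members, 8 had an adjusted p below 0.05 in each SB28 population (edgeR's quasi-likelihood test with Benjamini-Hochberg adjustment). Some alternatives ended this for Bid in both populations and for Bcl2 in mKate2+ cells. Bcl2 and Bak1 rose, whereas Bcl2l1, Mcl1, Bax, Bbc3, Pmaip1 and Bid fell. Changes of this kind were frequent in the whole transcriptome, where 29.3% of tested genes were higher and 33.8% lower at this threshold in mKate2- cells, and 28.0% higher and 32.1% lower in mKate2+ cells. Under the study's stricter criteria, which also ask for an absolute log2 fold change above 1, none of the 10 members was higher in either population. In mKate2- cells 3 members were lower (Bax, Bbc3 and Pmaip1), and in mKate2+ cells 2 were lower (Bbc3 and Pmaip1). The background under these criteria was 11.5% higher and 22.4% lower in mKate2- cells, and 12.2% higher and 22.8% lower in mKate2+ cells, so the members' shares lay close to those of all genes. The median log2 fold change of the 10 members was -0.61 in mKate2- cells and -0.64 in mKate2+ cells, beside -0.04 and -0.02 over all genes tested. The 2 comparisons share the astrocyte libraries and are not independent.

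**Figure D1:**
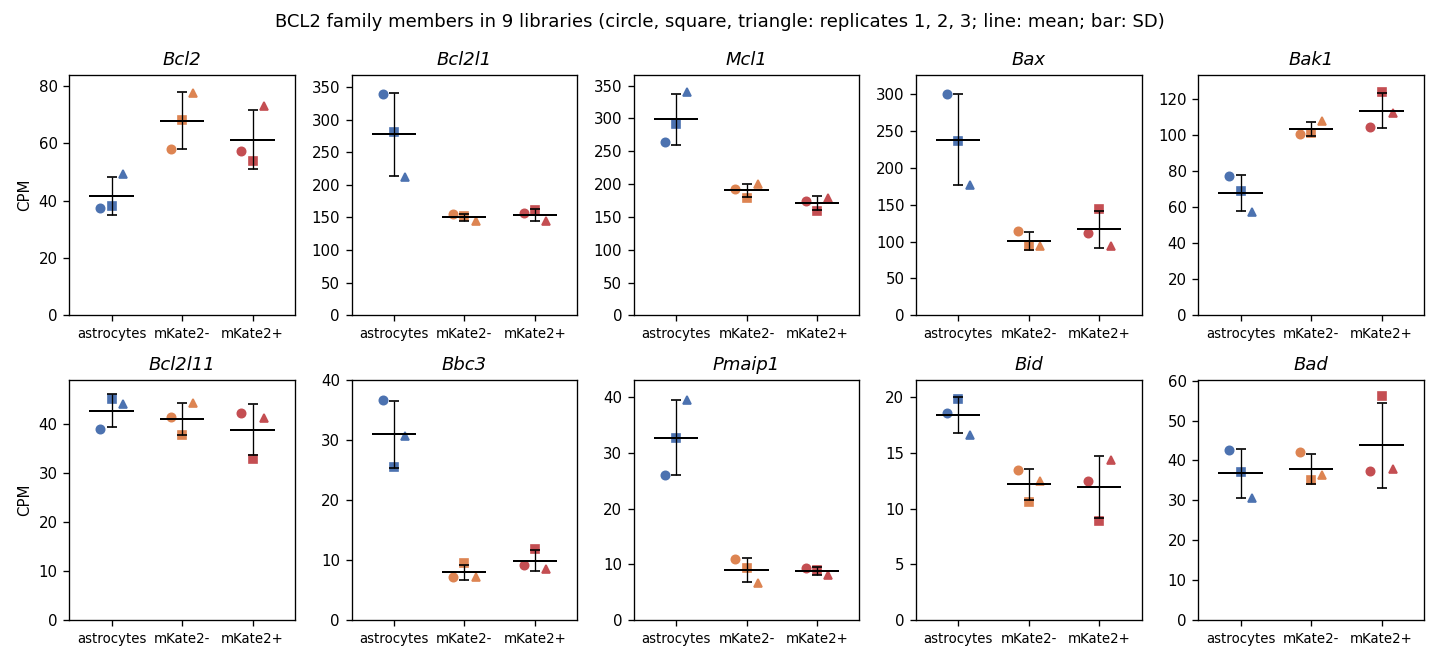
CPM of the 10 members (vertical axes, linear and starting at 0) in astrocytes, mKate2- and mKate2+ SB28 cells, with one symbol per library, a line at the mean and a bar for the SD of 3 libraries. Bbc3 and Pmaip1 lie lower in all 6 SB28 libraries than in any astrocyte library, Bcl2 and Bak1 lie higher, and Bcl2l11 and Bad overlap in all 3 populations.

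Among the survival genes, Bcl2l1 encodes BCL-XL and, by alternative splicing, a short form that promotes death, which gene counts cannot separate. Bcl2l1 (ENSMUSG00000007659, chr2:152780668-152831728, minus strand, GRCm38) stood at 339, 282 and 212 CPM in astrocytes, at 155, 152 and 144 CPM in mKate2- cells and at 157, 161 and 144 CPM in mKate2+ cells. All SB28 libraries lay below all astrocyte libraries, and the astrocytes varied more among themselves than the SB28 cells did. Bcl2l1 was 1.83-fold lower in mKate2- cells (log2 fold change -0.87, SE 0.18, adjusted p = 0.00367) and 1.71-fold lower in mKate2+ cells (-0.77, SE 0.19, adjusted p = 0.00943). The decrease did not reach the study's log2 threshold, and it did so in mKate2- cells without astrocyte replicate 3, at -1.04.

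Mcl1 encodes a short-lived survival protein that binds BAK and NOXA. Mcl1 (ENSMUSG00000038612, chr3:95658788-95663176, plus strand) stood at 264, 292 and 340.1 CPM in astrocytes, at 192, 179 and 199 CPM in mKate2- cells and at 174, 160 and 179 CPM in mKate2+ cells. All SB28 libraries lay below all astrocyte libraries, and among the astrocytes Mcl1 was highest in replicate 3, where Bcl2l1 was lowest. Mcl1 was 1.55-fold lower in mKate2- cells (log2 fold change -0.63, SE 0.11, adjusted p = 0.00189) and 1.66-fold lower in mKate2+ cells (-0.73, SE 0.12, adjusted p = 0.00179).

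Bcl2, the founding member, moved the other way. Bcl2 (ENSMUSG00000057329, chr1:106538178-106714274, minus strand) stood at 37.5, 38.2 and 49.3 CPM in astrocytes, at 57.9, 68.1 and 77.7 CPM in mKate2- cells and at 57.2, 53.7 and 73.0 CPM in mKate2+ cells. No SB28 library overlapped the astrocytes, although the lowest of them, at 53.7 CPM, was close to the highest astrocyte library at 49.3. Bcl2 was 1.65-fold higher in mKate2- cells (log2 fold change 0.72, SE 0.15, adjusted p = 0.00426) and 1.55-fold higher in mKate2+ cells (0.63, SE 0.16, adjusted p = 0.0119). In mKate2+ cells its adjusted p did not stay below 0.05 in every alternative. Per kilobase of exon Bcl2 was the least abundant of the survival genes in every population, at 4.55 in astrocytes beside 87.4 for Mcl1 and 60.5 for Bcl2l1. An antisense gene, D630008O14Rik, overlaps 558 exonic bases of Bcl2, and it did not exceed 0.056 CPM in any library.

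The effectors BAX and BAK form the pores of the outer membrane, and their genes moved in opposite directions. Bax (ENSMUSG00000003873, chr7:45461697-45466898, minus strand) stood at 300.2, 237 and 177 CPM in astrocytes, at 114, 93.7 and 94.3 CPM in mKate2- cells and at 112, 144 and 94.2 CPM in mKate2+ cells. Every SB28 library was below every astrocyte library, and mKate2+ replicate 2 was the highest among the SB28 cells. Bax was 2.35-fold lower in mKate2- cells (log2 fold change -1.23, SE 0.21, adjusted p = 0.00133). In mKate2+ cells it was 1.93-fold lower (-0.95, SE 0.25, adjusted p = 0.0127), short of the log2 threshold, and without mKate2+ replicate 2 it passed at -1.16. The difference between the SB28 populations was itself within error (log2 fold change 0.27, SE 0.18, adjusted p = 0.923).

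Bak1 (ENSMUSG00000057789, chr17:27019810-27029009, minus strand) stood at 77.2, 69.0 and 57.1 CPM in astrocytes, at 101, 101 and 107 CPM in mKate2- cells and at 105, 124 and 112 CPM in mKate2+ cells. All SB28 libraries exceeded all astrocyte libraries. Bak1 was 1.53-fold higher in mKate2- cells (log2 fold change 0.62, SE 0.14, adjusted p = 0.00506) and 1.77-fold higher in mKate2+ cells (0.82, SE 0.16, adjusted p = 0.00325). The make-up of the effector pair therefore differed between the cell types. Bax exceeded Bak1 by 5.30 ± 0.607-fold per kilobase in astrocytes (SD, n = 3), by 1.5 ± 0.209-fold in mKate2- cells and by 1.57 ± 0.254-fold in mKate2+ cells, with the lowest astrocyte library at 4.73 and the highest SB28 library at 1.78. The overlapping Ggnbp1, on the opposite strand, was at 1.99 to 3.42 CPM on average in the 3 populations, far under Bak1, and Gm45808, which shares 192 exonic bases with Bax, did not exceed 0.245 CPM.

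Of the BH3-only genes, Bbc3 and Pmaip1 had the largest decreases among the 10 members in both comparisons. They encode PUMA and NOXA, which are induced by p53 and by several forms of cell stress. Bbc3 (ENSMUSG00000002083, chr7:16308393-16318205, plus strand) stood at 36.7, 25.6 and 30.8 CPM in astrocytes, at 7.21, 9.47 and 7.24 CPM in mKate2- cells and at 9.24, 11.9 and 8.60 CPM in mKate2+ cells. The populations were fully separated, with a gap between the lowest astrocyte library at 25.6 CPM and the highest SB28 library at 11.9. Bbc3 was 3.85-fold lower in mKate2- cells (log2 fold change -1.95, SE 0.20, adjusted p = 0.000127) and 2.96-fold lower in mKate2+ cells (-1.56, SE 0.22, adjusted p = 0.000697).

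Pmaip1 stood at 26.1, 32.7 and 39.4 CPM in astrocytes, at 11.0, 9.39 and 6.60 CPM in mKate2- cells and at 9.43, 9.06 and 8.11 CPM in mKate2+ cells. Here too astrocytes and SB28 cells did not overlap, and the mKate2+ libraries were close to each other. Pmaip1 was 3.6-fold lower in mKate2- cells (log2 fold change -1.85, SE 0.23, adjusted p = 0.000284) and 3.49-fold lower in mKate2+ cells (-1.81, SE 0.19, adjusted p = 0.000169). Both genes kept the criteria in every alternative tried.

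Bid, whose product links death receptors to mitochondria after cleavage by caspase-8, stood at 18.6, 19.9 and 16.7 CPM in astrocytes, at 13.4, 10.6 and 12.5 CPM in mKate2- cells and at 12.5, 8.91 and 14.4 CPM in mKate2+ cells. It was 1.5-fold lower in mKate2- cells (log2 fold change -0.58, SE 0.16, adjusted p = 0.0123) and 1.47-fold lower in mKate2+ cells (-0.56, SE 0.20, adjusted p = 0.0403). This was the least secure of the 8 changes, since without astrocyte replicate 2 its adjusted p in mKate2+ cells was 0.102. With the replicate number as a block, Bid in mKate2+ cells did not pass either. Bid also shares 628 exonic bases with Bcl2l13 on the opposite strand, which averaged 55.9 CPM in astrocytes and 95.7 and 93.8 CPM in the mKate2- and mKate2+ populations, and whether the counting used strand is not given in the sources used here.

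Bcl2l11 and Bad, which encode BIM and BAD and are governed mainly by FOXO factors and by phosphorylation, did not pass the test. Bcl2l11 stood at 38.9, 45.1 and 44.2 CPM in astrocytes, at 41.3, 37.7 and 44.2 CPM in mKate2- cells and at 42.3, 33.0 and 41.3 CPM in mKate2+ cells. It differed from astrocytes by -0.04 on the log2 scale in mKate2- cells (SE 0.11, adjusted p = 0.774) and -0.06 in mKate2+ cells (SE 0.13, adjusted p = 0.691). Bad stood at 42.7, 37.1 and 30.5 CPM in astrocytes, at 42.2, 35.0 and 36.4 CPM in mKate2- cells and at 37.4, 56.1 and 37.9 CPM in mKate2+ cells. The 3 populations overlapped for both genes, and for Bad the highest value came from mKate2+ replicate 2. Bad differed from astrocytes by a log2 fold change of 0.05 in mKate2- cells (SE 0.16, adjusted p = 0.792) and of 0.33 in mKate2+ cells (SE 0.23, adjusted p = 0.237). Gpr137, which shares 524 exonic bases with Bad on the opposite strand, averaged 60.9, 37.5 and 38.8 CPM in astrocytes, mKate2- and mKate2+ cells.

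**Figure D2:**
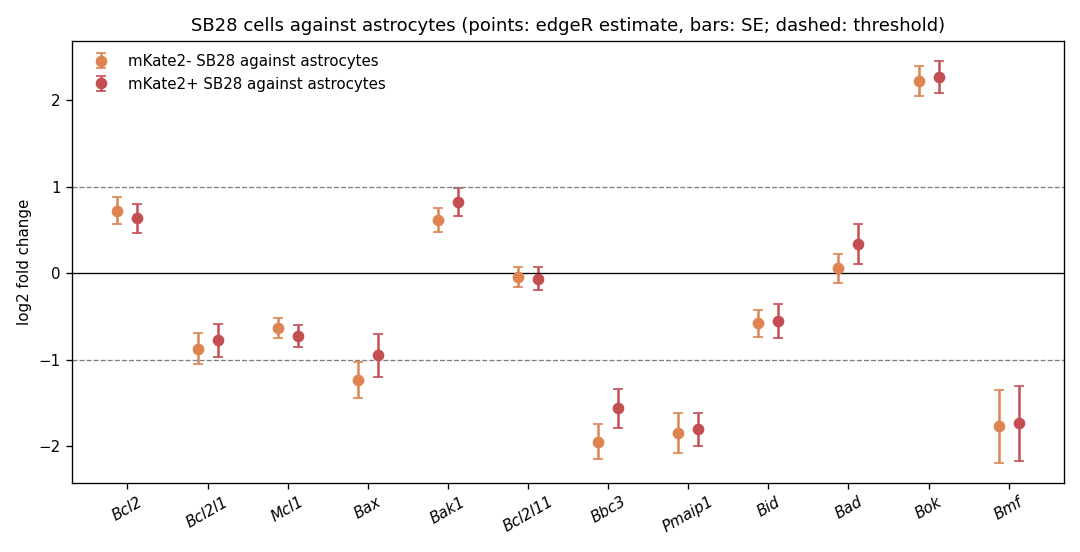
Log2 fold change (vertical axis) of each member and of the related genes Bok and Bmf in mKate2- and mKate2+ SB28 cells against astrocytes, with bars for the SE and dashed lines at 1 and -1. Bbc3, Pmaip1 and Bmf lie below -1 in both populations, Bax does so in mKate2- cells, and Bok lies above 1 in both.

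The family has further members, and 9 of them were counted in the same way. Bok encodes another effector-like protein, related to BAX and BAK but little restrained by the survival proteins. Bok stood at 29.2, 31.3 and 20.6 CPM in astrocytes, at 130.2, 122 and 122 CPM in mKate2- cells and at 126, 128 and 117 CPM in mKate2+ cells. It rose 4.66-fold in mKate2- cells (log2 fold change 2.22, SE 0.17, adjusted p = 3.43e-05) and 4.82-fold in mKate2+ cells (2.27, SE 0.18, adjusted p = 5.88e-05), which exceeded in size the change of any of the 10 members. In the summed levels of Bax, Bak1 and Bok per kilobase, Bok made up 7.65% ± 1.01 in astrocytes (SD, n = 3), 38.9% ± 0.670 in mKate2- cells and 35.9% ± 2.67 in mKate2+ cells.

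Bmf, a BH3-only gene whose product is held at the cytoskeleton, stood at 2.86, 5.14 and 5.66 CPM in astrocytes, at 1.36, 1.84 and 0.737 CPM in mKate2- cells and at 1.66, 1.5 and 0.702 CPM in mKate2+ cells. It fell 3.40-fold (log2 fold change -1.77, SE 0.42, adjusted p = 0.00728) and 3.33-fold (-1.73, SE 0.43, adjusted p = 0.0101). Of the 5 additional survival genes, Bcl2l2 alone passed the filter on low counts, and it was not past the criteria in either population. The BH3-only genes Bik and Hrk were too low to test.

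The members were ordered by level per kilobase of exon in each population. In astrocytes Bax led at 151, ahead of Mcl1 at 87.4, Bcl2l1 at 60.5 and Bak1 at 28.2, and no neighbors among these 4 overlapped across libraries. In mKate2- cells the order was Bax at 63.9, Mcl1 at 55.7, Bak1 at 42.8 and Bcl2l1 at 32.8, again without overlap between neighbors. In mKate2+ cells Bax was at 74.1 and Bcl2l1 at 33.6, while Mcl1 at 50.04 and Bak1 at 47.1 overlapped. By this measure Bak1 stood above Bcl2l1 in SB28 cells and below it in astrocytes. This depends on the length used, since the exons of Bcl2l1 cover 4586 bases and its longest transcript 2568. For Bak1 these lengths are 2407 and 2387 bases. In CPM not divided by length, Bcl2l1 stood above Bak1 in SB28 cells as well, at means of 152 and 108. Bbc3 was the fifth gene in astrocytes at 14.6, overlapping with Bad at 14.4, and took the eighth place in both SB28 populations, where Pmaip1 was the last and overlapped with Bid.

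To describe the balance of survival and death genes, the summed level per kilobase of Bcl2, Bcl2l1 and Mcl1 was divided by that of the other 7 members in each library. The ratio was 0.562, 0.661 and 0.808 in astrocytes, 0.656, 0.710 and 0.736 in mKate2- cells and 0.627, 0.487 and 0.669 in mKate2+ cells. The 3 populations overlapped, with means of 0.677 ± 0.123, 0.701 ± 0.0410 and 0.594 ± 0.0953 (SD, n = 3 each). All 3 sums that enter the ratio were lower on average in SB28 cells. The effector sums overlapped, at 143 in mKate2+ replicate 2 and 136 in astrocyte replicate 3. The survival genes summed to 152 ± 2.45 in astrocytes, 95.9 ± 2.76 in mKate2- cells and 90.3 ± 2.29 in mKate2+ cells. The BH3-only genes summed to 51.5 ± 1.97, 30.4 ± 2.11 and 33.2 ± 3.68 in the same order, and the effectors to 179 ± 43.3, 107 ± 6.69 and 121 ± 19.0. The ratio of survival to BH3-only genes was 2.97 ± 0.0717 in astrocytes, 3.16 ± 0.221 in mKate2- cells and 2.74 ± 0.350 in mKate2+ cells, also with overlap.

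The direction of this balance depended on how the members were weighted. With the additional family members in both sums, the ratio was 0.552 to 0.803 in astrocytes, 0.466 to 0.520 in mKate2- cells and 0.369 to 0.483 in mKate2+ cells, so that every SB28 library lay below every astrocyte library. With geometric means, which give each gene the same weight, it ran from 1.67 to 1.94 in astrocytes, from 2.20 to 2.68 in mKate2- cells and from 1.93 to 2.35 in mKate2+ cells. By this measure all mKate2- libraries lay above the astrocytes, whereas mKate2+ replicate 2, at 1.93, overlapped with astrocyte replicate 3 at 1.94. The first setting brings in Bok, and with it the summed effector level was 194 ± 45.7 in astrocytes, 174 ± 9.19 in mKate2- cells and 188 ± 21.7 in mKate2+ cells. Summed mRNA levels do not give the amounts of the proteins, which were not analysed here.

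**Figure D3:**
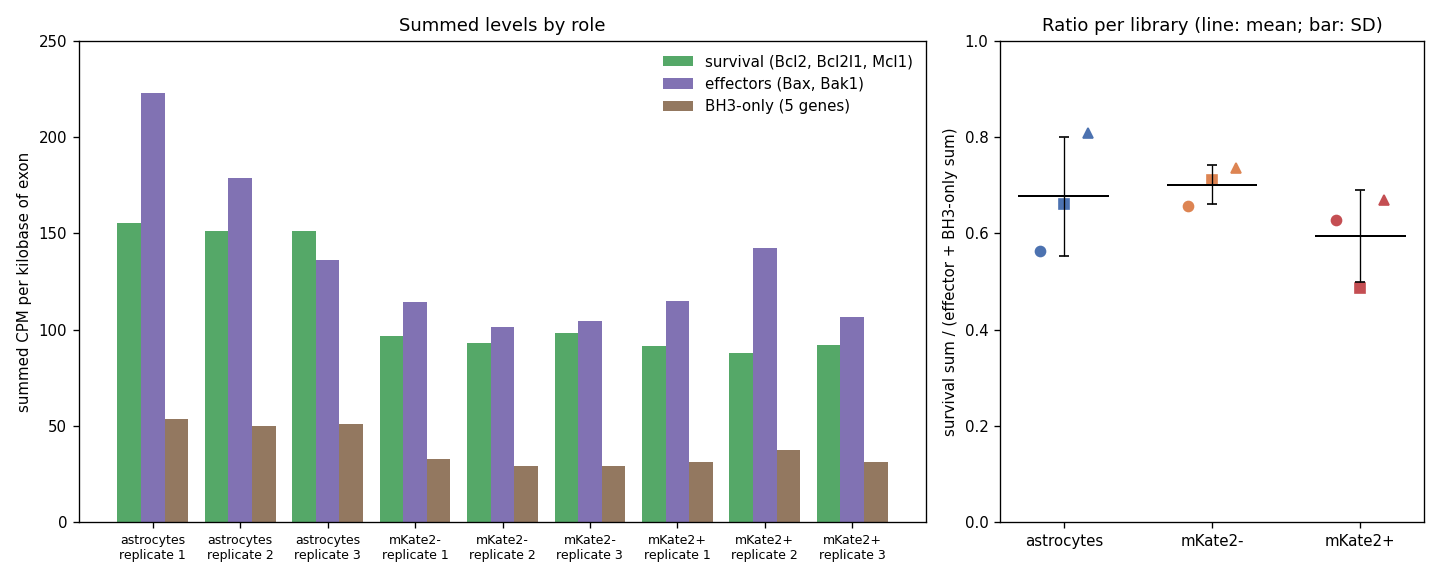
Left, summed CPM per kilobase of exon of the survival, effector and BH3-only members in each of the 9 libraries. Right, the ratio of the survival sum to the other 2 sums, with one symbol per library, a line at the mean and a bar for the SD. Each class is lower in the SB28 cells than in the astrocytes of replicates 1 and 2. The ratios of the 3 populations overlap, and the 9 libraries together span 0.487 to 0.808.

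Ratios were also taken for 5 single pairs of genes whose proteins are known to bind each other. Mcl1 exceeded Bak1 in every library except mKate2+ replicate 2, where the ratio was 0.910. The mean ratio was 3.20 ± 0.910 in astrocytes (SD, n = 3), 1.30 ± 0.0509 in mKate2- cells and 1.07 ± 0.140 in mKate2+ cells. Bcl2l1 exceeded Bad by 4.18 ± 0.284-fold, 2.23 ± 0.184-fold and 2.02 ± 0.382-fold in the same order. For both pairs all SB28 libraries lay below all astrocyte libraries, that is, with less survival mRNA for each death mRNA. Mcl1 exceeded Pmaip1 by 7.38 ± 0.630-fold in astrocytes, 17.8 ± 5.53-fold in mKate2- cells and 15.5 ± 1.92-fold in mKate2+ cells. The ratio of Bcl2 to Bcl2l11 was 0.855 ± 0.119, 1.45 ± 0.194 and 1.39 ± 0.184. These 2 pairs were separated in the opposite direction, with more survival mRNA for each death mRNA in SB28 cells. The ratio of Bcl2l1 to Bax was 0.403 ± 0.0127 in astrocytes and 0.516 ± 0.0456 and 0.464 ± 0.0722 in the mKate2- and mKate2+ populations, and mKate2+ replicate 2, at 0.385, fell below the astrocytes. These ratios are descriptions without a test.

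Upstream of the family, 6 genes were examined, namely Trp53, E2f1, Foxo3 and Ddit3, which induce members of it, and the p53 targets Cdkn1a and Mdm2. In both SB28 populations 5 of the 6 were lower past the criteria, and E2f1 was not past them. The median log2 fold changes of the 6 were -1.42 (mKate2-) and -1.40 (mKate2+). Over all genes tested, 22.4% and 22.8% were lower past the same criteria, with medians of -0.04 and -0.02. Trp53, which encodes p53, stood at 81.9, 67.9 and 71.9 CPM in astrocytes, at 18.2, 10.6 and 15.7 CPM in mKate2- cells and at 13.5, 6.39 and 13.9 CPM in mKate2+ cells. It was 4.95-fold lower in mKate2- cells (log2 fold change -2.31, SE 0.21, adjusted p = 7.5e-05) and 6.29-fold lower in mKate2+ cells (-2.65, SE 0.28, adjusted p = 0.000188). Cdkn1a, a cell cycle inhibitor and classical p53 target, stood at 739, 719 and 638 CPM in astrocytes and between 74.2 and 147 CPM in SB28 cells. It was 6.32-fold and 5.73-fold lower (log2 fold changes -2.66 and -2.52, adjusted p = 1.86e-05 and 0.000197). Mdm2, which encodes the ligase that degrades p53, was 2.14-fold and 2.27-fold lower, and Foxo3, an inducer of Bcl2l11, was 2.84-fold lower in both populations.

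Promoter windows from RefSeq (GRCm38.p6, 250 bases before to 50 after each start) were searched for the p53 decamer, the 10-letter unit of which p53 sites hold a pair. The decamer reads the same on both strands. Windows were listed for 9 of the 10 members, and Pmaip1 was not searched for want of one. Of these 9, 1 (Bax) held a match, beside 9.55% of all 27025 genes with a window. Of the p53 pathway genes, Cdkn1a held 2 matches 12 bases apart, and Mdm2 held 1. A pair of matches with at most 13 bases between them was found in 0.0731% of all windows. Matches lay in genes of both directions. Of 47 listed genes of the family and pathway with a window, 7 held a match, among them Trp53 itself and Bmf, which fell, and Birc5, which rose. The upstream stretches of Bax and of genes on both sides are shown for comparison. Capitals mark the decamer, and each is read along the strand of its gene at chr7:45467080-45467109 (minus), chr10:117710925-117710954 (minus), chr17:29090896-29090947 (plus), chr11:69580274-69580303 (plus) and chr11:117848999-117849028 (plus).
Bax: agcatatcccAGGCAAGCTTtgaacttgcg
Mdm2: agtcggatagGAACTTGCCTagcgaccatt
Cdkn1a: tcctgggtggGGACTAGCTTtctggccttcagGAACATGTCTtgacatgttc
Trp53: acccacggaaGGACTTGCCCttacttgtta
Birc5: gacttgcagcGGACATGCTTtaaagaggtg
A match is a run of letters and not a measured binding site.

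Downstream of the family, cytochrome c released from mitochondria assembles the apoptosome with APAF1 and starts the caspase cascade. Of 6 genes for released proteins and the apoptosome, 1 was higher past the criteria in mKate2- cells and 2 in mKate2+ cells. Over all genes tested the shares were 11.5% and 12.2%. Cycs, which encodes cytochrome c, stood at 74.3, 74.9 and 59.6 CPM in astrocytes, at 169, 138 and 159 CPM in mKate2- cells and at 161, 236 and 172 CPM in mKate2+ cells. It rose 2.25-fold (log2 fold change 1.17, SE 0.14, adjusted p = 0.000217) and 2.88-fold (1.53, SE 0.20, adjusted p = 0.000513).

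Casp6, which encodes a caspase, stood at 35.7, 39.3 and 29.1 CPM in astrocytes and between 62.2 and 76.6 CPM in the SB28 libraries, without overlap. It rose 2.03-fold and 2.06-fold (log2 fold changes 1.02 and 1.04, adjusted p = 0.000489 and 0.00146), close to the log2 threshold. Several alternatives took Casp6 under that threshold, among them upper-quartile normalization, at 0.943 and 0.944.

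Among 7 genes of death receptor signaling, 1 was lower past the criteria in both populations and none was higher. Over all genes tested, 22.4% (mKate2-) and 22.8% (mKate2+) were lower past them, and 11.5% and 12.2% higher. Fas, a death receptor, stood at 14.4, 12.2 and 23.5 CPM in astrocytes and between 0.147 and 0.603 CPM in the SB28 libraries. These are 353 to 824 counts in the astrocytes and 4 to 18 counts in the SB28 libraries, so that Fas passed the filter on low counts through the astrocytes alone, and it was not tested with 10 counts required in every library or between the SB28 populations. A fitted size would rest on these few counts, so no fold change or p is given for Fas. Of 5 inhibitors of apoptosis proteins 1 was higher in both, beside the 11.5% and 12.2% of all genes. This was Birc5, which encodes survivin and is also expressed in dividing cells. Birc5 stood at 20.0, 17.2 and 18.9 CPM in astrocytes and between 41.9 and 58.9 CPM in SB28 cells, a 2.66-fold and a 3.04-fold rise (adjusted p = 0.000122 and 0.000105). None of the 3 genes for outer membrane channels (VDAC) was past the criteria. Over all 48 other genes of the family and pathway, 40 passed the filter, of which 6 were higher and 8 lower in each population. Their median log2 fold changes were 0.09 and 0.16. These counts lay close to the shares of all genes, 11.5% and 12.2% higher and 22.4% and 22.8% lower.

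**Figure D4:**
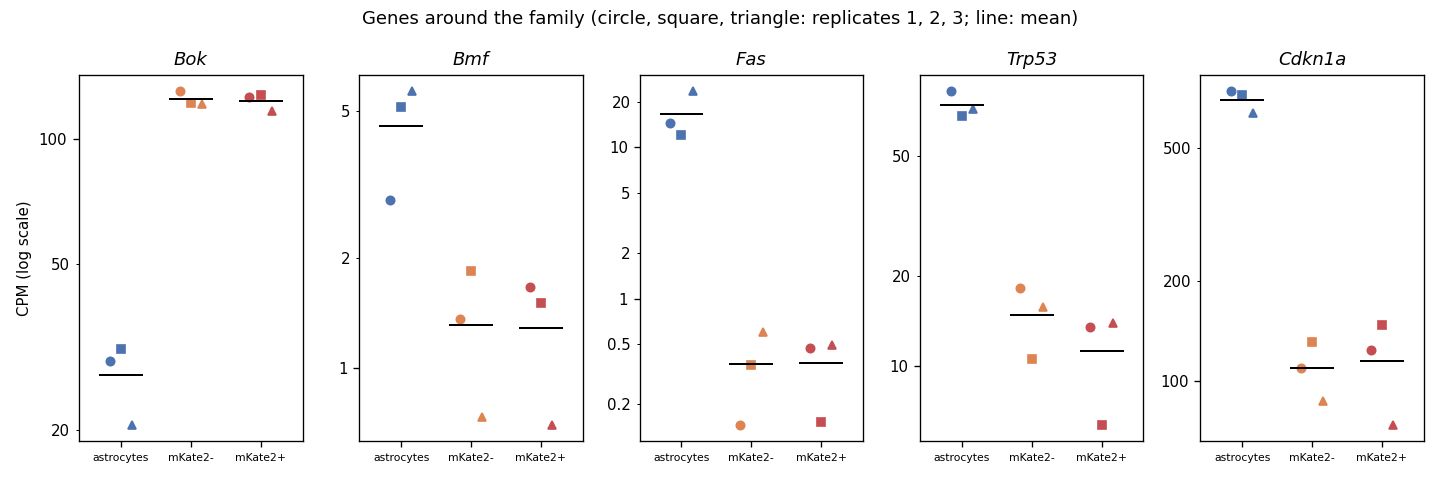
CPM on log axes of Bok, Bmf, Fas, Trp53 and Cdkn1a in the 9 libraries, with one symbol per library and a line at the mean of 3. Bok is higher in all SB28 libraries and the other 4 genes are lower in all of them, Fas at 0.603 CPM or less.

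The study asked what the uptake of astrocyte mitochondria changes in tumor cells, and for this it compared mKate2+ with mKate2- SB28 cells. The cells were sorted by uptake and not assigned to it. An effect of uptake therefore cannot be told apart from differences between the cells that came before it. The study took genes upregulated by more than 1.5-fold at an unadjusted p below 0.05 and a count above 50. Here the same cuts were applied in both directions, with the count read as the mean normalized count of the 6 libraries. None of the 10 members was past them, and 0.363% of the 11854 genes tested were. None of the 10 had an unadjusted p below 0.05 (edgeR) either, beside 2.03% of all genes, and DESeq2 called none of them. No member was separated between the populations in CPM, beside 8.83% of all genes. No gene of the whole table reached an adjusted p below 0.05, the smallest being 0.923.

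The member with the largest difference was Bbc3, at a mean of 9.93 ± 1.77 CPM in mKate2+ and 7.97 ± 1.30 CPM in mKate2- cells (SD, n = 3 each), a log2 fold change of 0.37 (SE 0.20, adjusted p = 0.923). Bax and Bad were each higher by 0.27 on the log2 scale (SE 0.18 and 0.20), and Bak1 by 0.19 (SE 0.10). The remaining 6 members lay between -0.10 and 0.09. In this, mKate2+ replicate 2 stood apart, since it held the highest Bcl2l1, Bax, Bak1, Bbc3 and Bad and the lowest Bcl2, Mcl1, Bcl2l11 and Bid of the 6 SB28 libraries. Without that library the log2 fold change was 0.16 for Bbc3, 0.04 for Bax, 0.08 for Bak1 and -0.01 for Bad. The survival to death ratio of mKate2+ cells rose from 0.594 to 0.648 without it, beside 0.701 in mKate2- cells. This library also had the lowest TMM factor, at 0.921 beside 0.988 to 1.03 in the other 8, and its part in these differences beyond the values given was not tested.

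**Figure D5:**
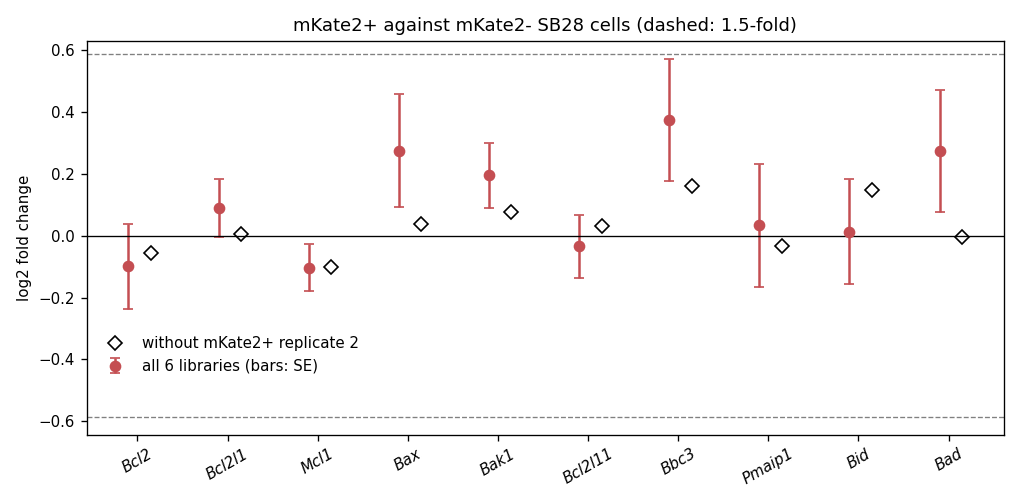
Log2 fold change (vertical axis) of the 10 members in mKate2+ against mKate2- SB28 cells, as filled points with SE bars for all 6 libraries and as open diamonds without mKate2+ replicate 2. All points lie within the dashed lines at a 1.5-fold change, and Bax and Bad move from 0.27 to 0.04 and -0.01.

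Other genes with a course like that of Bbc3 and Pmaip1 over the 9 libraries were sought by the Euclidean distance of centered log2 CPM among 13449 genes. The nearest to Bbc3 were G6pc3, Ctsz and Nudt18 at distances of 0.327, 0.331 and 0.382, beside a median of 2.99 over all genes. The nearest to Pmaip1 were Creg1, 2810410L24Rik and Pisd-ps1 at 0.403, 0.474 and 0.517, beside a median of 3.03. The distances describe these 9 libraries and were not tested.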

How the data were processed

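Per the study's methods and the submitters' processing notes, the authors trimmed adapters (Trimmomatic 0.36), mapped reads to GRCm38 with STAR 2.5.2b and counted uniquely assigned reads per gene with featureCounts of Subread 1.5.2. The deposited values are raw counts without normalization, and whether strand was used is not given in the sources used here. The sort gates in the labels conflict with the study's methods on which cells carried CellTrace Violet, so libraries were grouped by their titles. Gene names, positions and exonic lengths came from GENCODE M21 (GRCm38), which named 49056 of 49315 gene IDs. Every pair of replicates differed by more than sampling noise.

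Comparisons used R 4.3.3 with edgeR 4.0.16 on the whole table, TMM normalization, genes exceeding 1 CPM in 2 or more of the 6 compared libraries, the quasi-likelihood test and Benjamini-Hochberg adjustment. The script was tested on simulated data. CPM used library totals, and CPM per kilobase divided by the length of the union of exons. SE was the absolute log2 fold change divided by the square root of the F statistic. DESeq2 1.42.0, other normalizations and filters, a gene length trend, the replicate number as a block and leaving out each library were tried as alternatives. The members and lists were chosen with earlier results of these data known. All 10 members were reported with every value, together with each called gene of the additional family lists and, of the other lists, up to 4 genes with the smallest adjusted p in mKate2- cells among those called in the same direction in both comparisons with astrocytes. Some genes of the pathway lists are not reported here.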

Additional observations from a re-analysis of the deposited data

Results flagged for a closer look

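Among the 10 members, the values of the 6 SB28 libraries were checked for a library far from the others with Dixon's ratio. Bad was at 56.1 CPM in mKate2+ replicate 2, while the next highest SB28 library was at 42.2 CPM and the lowest at 35.0 CPM, a ratio of 0.660, past the 95% critical value. Chance alone flags about 1 in 20 groups, and the same library was highest for Bax, Bak1 and Bbc3 without passing the critical value. Bad shares exonic bases with Gpr137 on the opposite strand, which was at 44.4 CPM in this library and at 34.9 to 38.7 CPM in the other SB28 libraries. Its part in the value of Bad was not tested.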

How the results depend on the processing

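Bbc3 and Pmaip1 stayed past the criteria against astrocytes in all alternatives, with log2 fold changes of -2.09 to -1.80 and -2.01 to -1.66 in mKate2- cells and of -1.76 to -1.41 and -1.94 to -1.68 in mKate2+ cells. In mKate2- cells Bax did so too (-1.41 to -1.01). In mKate2+ cells Bax was at -0.95 and passed the log2 threshold under upper-quartile normalization (-1.05), library totals (-1.03), a minimum of 10 counts in every library (-1.02), removal of the length trend with or without the block (-1.07), and without astrocyte replicate 3 (-1.15) or mKate2+ replicate 2 (-1.16). Bcl2l1 passed in mKate2- cells without astrocyte replicate 3 alone. Of 10 members, 7 to 8 in mKate2- and 6 to 8 in mKate2+ cells kept an adjusted p below 0.05, the exceptions being Bid, up to 0.0525 and 0.102, and Bcl2 in mKate2+ cells, up to 0.0545. Casp6 dropped under the log2 threshold in 4 alternatives in mKate2- cells and in 5 in mKate2+ cells. Other signs that turned were of members not past the criteria, all of them near 0 except Bad between mKate2+ and mKate2- cells, at 0.273 with all libraries. In mKate2- cells against astrocytes, Bad was at -0.0268 with upper-quartile normalization, at -0.0226 with 10 counts in every library and between -0.0712 and 0.186 with a library left out, and Bcl2l11 was at 0.0109 without a filter and between -0.0982 and 0.0187 with a library left out. In mKate2+ cells against astrocytes, Bcl2l11 was at 0.0117 after removal of the length trend, at 0.0123 with the replicate block as well, and between -0.120 and 0.0163 with a library left out. Between mKate2+ and mKate2- cells, library totals gave -0.0181 for Pmaip1 and -0.0297 for Bid, removal of the length trend gave 0.0298 for Bcl2l11, -0.0159 for Pmaip1 and -0.00235 for Bid, and the trend with the replicate block gave 0.0321 for Bcl2l11 and -0.0158 for Bid. With a library left out, these values ran from -0.138 to 0.148 for Bid, from -0.0905 to 0.0296 for Bcl2l11, from -0.153 to 0.203 for Pmaip1 and from -0.00507 to 0.398 for Bad. The cause of these turns was not tested.

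Replicate numbers were not taken as pairs, since the deviations of same-numbered libraries correlated between -0.147 and 0.251. With the replicate number as a block, 3 members were lower in mKate2- and 2 in mKate2+ cells, and Bid in mKate2+ cells had an adjusted p of 0.0637 (edgeR). Calls over all genes between the SB28 populations were 23 higher and 20 lower, and 13 and 33 with the block. Their total moved by over 1.5 times without mKate2+ replicate 1 (310 and 70), replicate 3 (233 and 36) or replicate 2 (6 and 16), without a filter (224 and 35), with DESeq2 (62 and 21) and with all 9 libraries in the fit (53 and 28). One direction alone moved that far without mKate2- replicate 1 (15 and 21) or replicate 2 (10 and 28), and with the length trend removed (13 and 19) or removed with the block (11 and 28). None was a member. The survival to death ratio, in the order astrocytes, mKate2- and mKate2+ cells, was 1.34, 1.31 and 1.14 in CPM not divided by length, 1.78, 2.44 and 2.14 with geometric means, 0.282, 0.294 and 0.264 without Mcl1, and 0.496 and 0.434 in the 2 SB28 populations with the additional family. Without a filter on low counts the median log2 fold change of all genes against astrocytes moved to -0.206 in mKate2- and -0.186 in mKate2+ cells.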
